A study of Mus musculus with 2 samples.

Results

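Chromatin accessibility was examined at the neuromesodermal and Cdx genes, 7 genes of the tailbud program that precedes neural identity: T, Tbx6, Msgn1, Cdx1, Cdx2, Cdx4 and Nkx1-2. An interval of accessible chromatin was assigned to a gene when the transcription start site (TSS) of that gene was the nearest protein-coding TSS. This gave 31 of the 119502 intervals in the data. ATAC-seq uses the Tn5 transposase to tag DNA that is open to it. Here it was run on live, unfixed neural progenitors differentiated from a mouse ES cell line (Olig2-mKate2) and sorted by their mKate2 reporter of Olig2, a transcription factor of the progenitors that form motor neurons (pMN). Both libraries came from 1 group, harvested at day 5. All cells had been exposed to LGK (5 µM) with bFGF (10 ng/ml), then to bFGF, the Wnt pathway agonist CHIR99021 (5 µM for 20 h), SB-431542 (10 µM) and DMH1 (2 µM), and finally to retinoic acid (100 nM) and SAG (100 nM), an agonist of Sonic hedgehog signaling. The sorted cells were of 1 line and, per the study's methods, include newly born motor neurons and some cells positive for both OLIG2 and NKX2.2. There was no earlier time point and no other cell type, so no change over time and no difference between conditions was measured.

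Neuromesodermal progenitors (NMPs) are bipotent cells of the caudal embryo that give rise to spinal cord and to paraxial mesoderm. Wnt and FGF signals maintain them, and retinoic acid promotes their exit to the neural fate. T (Brachyury) is a T-box transcription factor of the primitive streak and tailbud, Tbx6 is a T-box factor and Msgn1 a bHLH factor of presomitic mesoderm, Cdx1, Cdx2 and Cdx4 are caudal-type homeobox factors that act on Hox genes and axis elongation, and Nkx1-2 is a homeobox gene of the NMP and preneural region.

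The sequences on which the results turn are shown here, 5′ to 3′, as mm10 (GRCm38) bases. The promoter sequences are credited to RefSeq and stop before the TSS. They show what lies at start sites that were weakly accessible (T and Cdx2), that had an interval edge close by (Cdx4), or that had no interval (Msgn1). Capitals mark matches to the motifs given further on.
Promoter of T, chr17:8434173-8434422, plus strand: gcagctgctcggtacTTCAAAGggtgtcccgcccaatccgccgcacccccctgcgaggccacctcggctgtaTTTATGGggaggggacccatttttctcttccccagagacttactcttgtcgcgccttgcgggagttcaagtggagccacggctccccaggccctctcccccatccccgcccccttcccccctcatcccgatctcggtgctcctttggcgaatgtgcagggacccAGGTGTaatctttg
Promoter of Msgn1, chr12:11208973-11209198, minus strand: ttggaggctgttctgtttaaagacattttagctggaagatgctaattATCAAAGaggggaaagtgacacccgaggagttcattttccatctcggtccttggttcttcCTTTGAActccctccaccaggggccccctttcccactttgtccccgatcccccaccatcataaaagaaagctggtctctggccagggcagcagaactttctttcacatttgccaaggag
Promoter of Cdx2, chr5:147307271-147307499, minus strand: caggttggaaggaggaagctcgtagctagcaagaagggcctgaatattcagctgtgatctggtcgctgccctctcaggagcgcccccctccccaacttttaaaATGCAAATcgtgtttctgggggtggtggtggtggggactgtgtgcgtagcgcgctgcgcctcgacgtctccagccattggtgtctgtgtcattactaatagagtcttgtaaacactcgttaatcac
Promoter of Cdx4, chrX:103321148-103321397, plus strand: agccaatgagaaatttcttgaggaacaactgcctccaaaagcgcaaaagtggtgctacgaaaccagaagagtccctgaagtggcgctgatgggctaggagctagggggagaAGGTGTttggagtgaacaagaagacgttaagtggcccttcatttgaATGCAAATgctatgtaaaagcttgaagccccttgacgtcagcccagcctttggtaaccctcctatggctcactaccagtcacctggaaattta
The remaining sequences are the middle 300 bases of the densest distal intervals of T, Cdx2 and Cdx4 and of the interval next to the T promoter.
Interval of T, 34.2 kb downstream, chr17:8468763-8469062, plus strand: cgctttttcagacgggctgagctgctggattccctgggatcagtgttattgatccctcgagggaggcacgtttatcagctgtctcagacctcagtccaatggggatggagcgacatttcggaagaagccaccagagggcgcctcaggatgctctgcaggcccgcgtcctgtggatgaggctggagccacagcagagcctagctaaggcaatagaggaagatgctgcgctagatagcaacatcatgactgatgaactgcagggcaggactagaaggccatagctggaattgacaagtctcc
Interval of T, 4.05 kb upstream, chr17:8429779-8430078, plus strand: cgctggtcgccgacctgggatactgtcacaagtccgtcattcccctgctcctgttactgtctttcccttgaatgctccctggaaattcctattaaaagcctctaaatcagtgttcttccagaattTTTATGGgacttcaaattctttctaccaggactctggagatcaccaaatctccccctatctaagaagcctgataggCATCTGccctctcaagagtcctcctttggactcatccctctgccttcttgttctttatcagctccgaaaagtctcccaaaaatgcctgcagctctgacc
Interval of Cdx2, 7.03 kb downstream, chr5:147299507-147299806, plus strand: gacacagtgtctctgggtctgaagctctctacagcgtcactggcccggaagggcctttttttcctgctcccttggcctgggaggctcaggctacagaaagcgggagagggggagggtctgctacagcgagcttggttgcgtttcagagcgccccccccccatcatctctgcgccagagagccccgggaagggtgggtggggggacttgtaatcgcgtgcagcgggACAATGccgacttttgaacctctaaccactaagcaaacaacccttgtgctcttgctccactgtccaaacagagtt
Interval of Cdx4, 33.6 kb upstream, chrX:103287296-103287595, plus strand: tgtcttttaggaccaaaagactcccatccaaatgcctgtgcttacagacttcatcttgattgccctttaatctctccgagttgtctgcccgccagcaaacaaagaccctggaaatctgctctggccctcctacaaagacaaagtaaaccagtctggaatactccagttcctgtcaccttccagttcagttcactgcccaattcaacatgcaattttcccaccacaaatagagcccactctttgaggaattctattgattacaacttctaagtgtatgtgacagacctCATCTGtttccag

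The libraries were of like depth, with 31876165 counts in replicate 1 and 31672240 in replicate 2, and a median of 65 and 66 counts per interval. Counts were divided by size factors to give normalised counts, and by interval length in kb to give a density. Promoters of the neural progenitor markers Sox1, Sox2, Sox3, Pax6, Nkx6-1, Nkx6-2, Olig1, Olig2 and Irx3 all carried an interval over the TSS (9 of 9), with densities of 187 to 1498 and a median of 862 normalised counts per kb. No interval lay within 1 kb of the TSS of the pluripotency genes Pou5f1 and Nanog. The other 4 of 6 pluripotency genes had a TSS interval, as did 4 of 6 fibroblast genes (feeder fibroblasts were used to maintain the ES cells and were removed by plating on gelatin before differentiation), with highest densities of 677 at Tfcp2l1 and 459 at Twist1, and Col3a1 had no interval within 1 kb. Of 6 motor neuron genes 4 had a TSS interval (up to 1087 at Isl1), and of 6 genes of other lineages 3 (up to 415 at Tal1). A TSS here is the start of the gene record. With the start of any protein-coding transcript, Pax6 had 613, Sox17 had 458, Esrrb had 282 in place of 139 and Lhx3 had 376 in place of 399. Isl2 gained an interval at 2268 and Gata4 gained one at 326. The values of the 7 genes of interest stayed as given. Whether cells of other types contributed to any interval was not tested.

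The first question was whether the promoters of the neuromesodermal and Cdx genes were accessible in the sorted cells. An interval covered the TSS of 4 of the 7 genes (T, Cdx1, Cdx2 and Nkx1-2), and 61.5% of the 21938 protein-coding genes had one. All 4 were weak. With genes without a TSS interval counted as 0, the median promoter density of the 7 genes was 119 ± 6.58 (SD, n = 2) normalised counts per kb, and that of all protein-coding genes was 402 ± 7.93 (SD, n = 2). The median of genes with a TSS interval was 884, which 6750 of all 21938 protein-coding genes exceeded. None of the 7 exceeded it, and 4 of the 9 neural progenitor markers did. By the same measure no pluripotency, fibroblast or other-lineage gene exceeded it either, and 1 motor neuron gene did. The list medians were 150 ± 7.94 for pluripotency, 185 ± 5.30 for fibroblast, 85.8 ± 4.98 for other-lineage and 349 ± 4.40 for motor neuron genes (SD, n = 2 each). Low promoter density was thus not particular to the 7 genes. With intervals within 1 kb of the TSS allowed, the median of the 7 genes was 204, and Tbx6, at 1038, exceeded 884. That limit refers to intervals over a TSS, which the Tbx6 interval is not. By the 1 kb measure Tbx6 was above 74.8% of protein-coding genes. The file holds counts only inside intervals, so no count or upper limit can be given at a TSS without one.

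**Figure D1:**
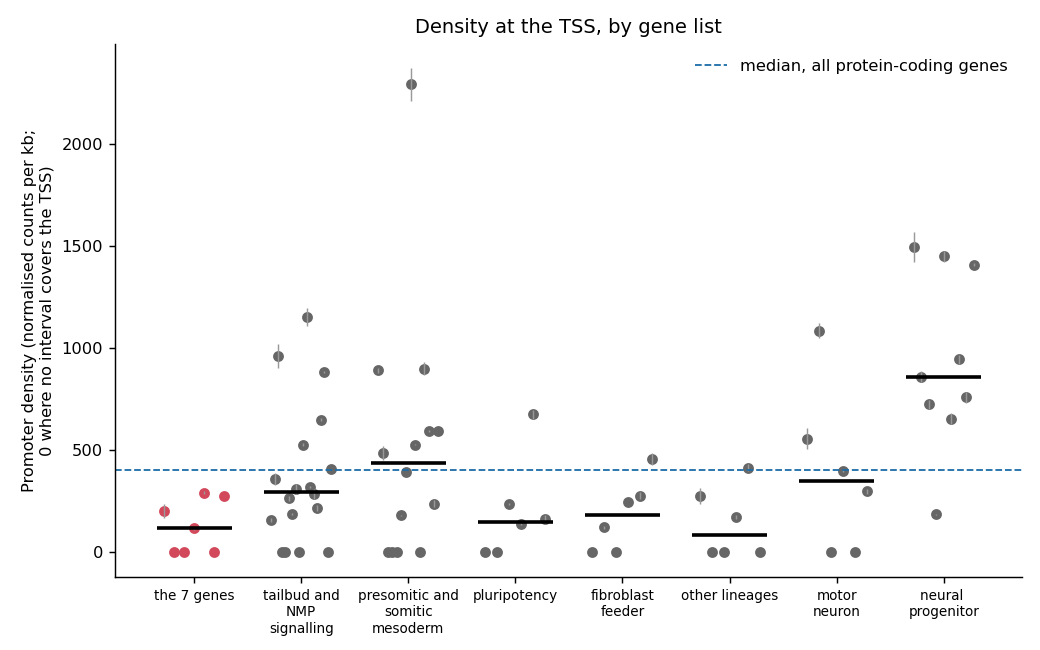
Density at the TSS in normalised counts per kb for the 7 genes (red) and for companion and marker lists (gray). Points are genes, with the mean of 2 libraries and SD bars; black lines are list medians and the dashed line is the median of all protein-coding genes (402). Genes without an interval over the TSS are drawn at 0, which is not a measured count. By this measure the 7 genes sit between 0 and 294, and 8 of the 9 neural progenitor markers lie above all of them. Pax6, at 187 by its gene record, has 613 with the start of any of its transcripts, which is above them too. With intervals within 1 kb of the TSS allowed, Tbx6 has 1038, and of the markers only Sox1, Nkx6-1 and Irx3 are higher.

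Among the 4 genes with a TSS interval, Cdx2 had the highest promoter density. Its TSS interval, at chr5:147304462-147307444, was 2983 bp long, overlapped coding and untranslated exon sequence, and held 888 counts in replicate 1 and 864 in replicate 2, for densities of 298 and 290. The mean of 294 ± 5.86 (SD, n = 2) was above 13.0% of genes with a TSS interval. Both counts were below the medians over all TSS intervals, 1127 in replicate 1 and 1095 in replicate 2. The interval was also longer than the median TSS interval of 1229 bp, and the density was low.

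Nkx1-2 followed, with 256 counts in each library over 926 bp at chr7:132599316-132600241, a density of 276 ± 0.160 (SD, n = 2), above 12.2% of genes with a TSS interval. The order of Cdx2 and Nkx1-2 held in both libraries, but the exact Poisson 95% intervals of their pooled densities, 280.1 to 308 and 253 to 301, overlapped. These intervals cover counting error only. This TSS interval also overlapped Gm16764, an antisense gene, and an intron of the Fgfr2 gene record, and ATAC-seq fragments carry no strand by which these could be told apart.

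At T the TSS interval, chr17:8433080-8434780, ran over the start site into coding sequence and had 387 counts in replicate 1 and 307 in replicate 2. The densities were 228 and 180, with a mean of 204 ± 33.4 (SD, n = 2), above 8.74% of genes with a TSS interval. Of all intervals of the 7 genes this one had the smallest p-value for a difference between the libraries, although it did not pass the adjusted limit. Both libraries lay below Cdx2 and Nkx1-2.

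The lowest TSS interval was that of Cdx1, chr18:61034679-61036742, where 255 and 236 counts over 2064 bp gave 119 ± 6.58 (SD, n = 2) normalised counts per kb, above only 4.50% of genes with a TSS interval. The Poisson intervals of T (189 to 220) and Cdx1 (109 to 129.9) did not overlap each other or those of Cdx2 and Nkx1-2. At T both libraries, at 228 and 180, lay outside that gene's interval, which covers counting error only.

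The start sites of Tbx6, Cdx4 and Msgn1 lay outside intervals. At Cdx4 an interval began 41 bp after the annotated start, chrX:103321439-103322172, over its coding and untranslated exon sequence, and was among the weakest, with 55 and 48 counts and a density of 70.2 ± 6.78 (SD, n = 2). For Msgn1, the nearest interval was 2.37 kb upstream, chr12:11211337-11211638, with 20 and 27 counts and a density of 77.8 ± 16.3 (SD, n = 2). Allowing intervals within 1 kb of the TSS brought the number of genes to 6 of 7, Msgn1 being the exception, with 67.8% of all protein-coding genes.

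Tbx6 differed from the others. Its 1 interval, chr7:126779860-126781045, ended 438 bp upstream of the TSS, ran over the coding sequence and 3′ untranslated region of the last exon of Ypel3, and held 1243 and 1219 counts. The density was 1048 in replicate 1 and 1027 in replicate 2, a mean of 1038 ± 14.9 (SD, n = 2), above 97.8% of distal intervals. It was the 1 distal interval of the 27 that exceeded the median density of all TSS intervals, which 3.37% of distal intervals did. No TSS of any annotated gene lay closer to it than that of Tbx6. Start sites are close together here, with those of Ypel3 4.53 kb and of Ppp4c 11.0 kb from Tbx6 and promoter densities of 1463 ± 51.1 and 1694 ± 48.1 (SD, n = 2 each), and which gene the interval acts on cannot be told from these counts. The 250 bases directly upstream of the Tbx6 TSS lay outside the interval.

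In GENCODE M21 on mm10, T lies at chr17:8434423-8442496, Tbx6 at chr7:126781483-126785560 and Cdx4 at chrX:103321398-103330592, all on the plus strand. Msgn1 lies at chr12:11208360-11208972, Cdx1 at chr18:61018862-61036199, Cdx2 at chr5:147300805-147307270 and Nkx1-2 at chr7:132594878-132599637, all on the minus strand.

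The second question was how accessibility was distributed around the genes. The 7 genes had between 1 interval (Tbx6) and 10 intervals (T), beside a median of 3 over protein-coding genes. T exceeded 83.4% of genes in number of intervals, but its start site also lies in a wide gap, with 84.7 kb closer to it than to any other protein-coding TSS, whereas Tbx6 had 7.77 kb (median over genes 47.5 kb). Per 10 kb of this territory the number of intervals ranged from 0.471 at Cdx4 to 1.94 at Cdx1. Pooled over the summed territory of genes it was 0.45. The pooled value gives wide territories more weight, and a median of per-gene values was not computed. Of the 31 intervals, 4 lay over a TSS and 27 were distal, 13 upstream and 14 downstream. Among the distal intervals 13 were intergenic, 6 intronic and 8 over exons.

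**Figure D2:**
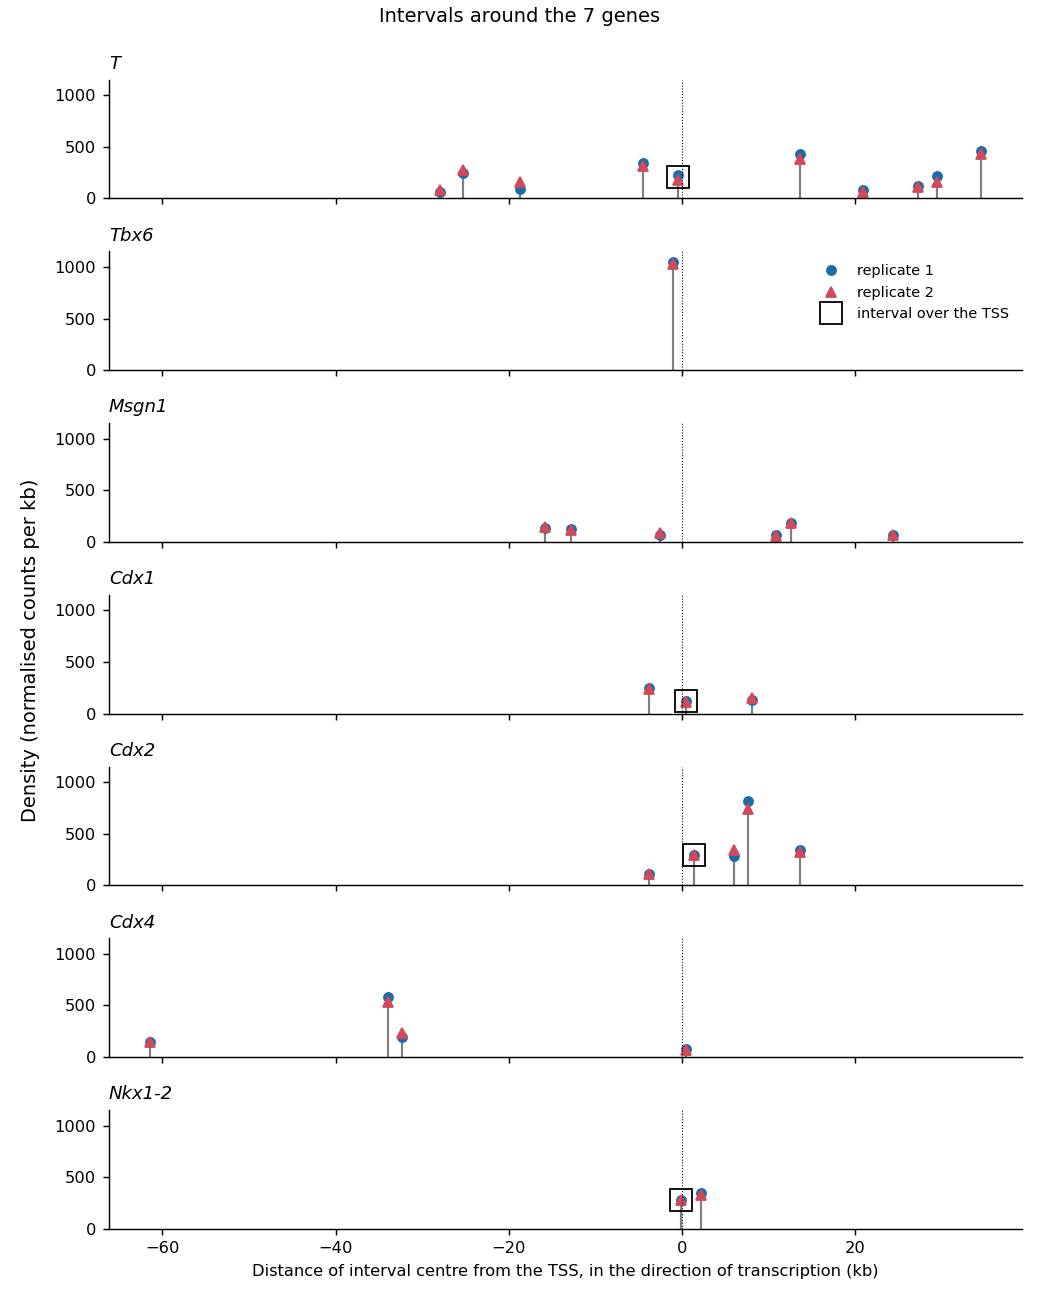
Density of each of the 31 intervals (normalised counts per kb) against the distance of its centre from the TSS in kb, with upstream to the left, in replicate 1 (circles) and replicate 2 (triangles). Boxes mark intervals over the TSS, which at T, Cdx1, Cdx2 and Nkx1-2 are lower than another interval of the same gene.

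The study used a mean count over 100 as a filter in comparisons between samples, beside a fold-change limit, and not as a limit of accessibility. Here a mean normalised count over 100 was reached by 14 of the 31 intervals (45.2%), beside 38.8% of all intervals. It was reached by all 4 TSS intervals, beside 94.9% of TSS intervals in general, and by 10 of the 27 distal ones (37.0%), beside 32.4%. The share of distal intervals was therefore near the background. The median density of the 27 distal intervals was 181 ± 12.8 (SD, n = 2), and that of all distal intervals 125 ± 2.05, whereas for TSS intervals the order was the opposite, 240.2 ± 16.8 in the 4 genes and 853 ± 20.4 overall (SD, n = 2 each). The 27 distal densities ran from 70.8 to 489 between their 10th and 90th percentiles. Distal medians of the marker lists were 106 (pluripotency), 156 (fibroblast), 162 (motor neuron), 175 (neural progenitor) and 213 (other lineages).

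In each of the 4 genes with a TSS interval, another interval was denser than the promoter, in both libraries. Each TSS interval in the genome was credited to 1 gene, which gave 12218 genes, fewer than the 13500 whose TSS an interval covered. A denser distal interval was found for 22.3% of these, and for 26.8% of the 10154 among them that had a distal interval. These shares include promoters of all densities, whereas the 4 were weak, and weak promoters alone were not compared. The ratio of the densest interval to the TSS interval was 2.64 ± 0.132 at Cdx2, 2.16 ± 0.265 at T, 2.05 ± 0.0464 at Cdx1 and 1.21 ± 0.0377 at Nkx1-2 (SD, n = 2 each). The ratio depends on the density of a long promoter interval, and by counts per interval the TSS interval was higher than the densest one at T and Cdx1 in both libraries, and at Cdx2 in replicate 2 (864 against 863 counts) but not in replicate 1 (888 against 952).

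The densest interval of the Cdx genes was 7.03 kb downstream of the Cdx2 TSS, past the end of the gene, at chr5:147299073-147300241. It was intergenic and had 952 and 863 counts, for densities of 815 and 738 and a mean of 776 ± 54.3 (SD, n = 2), above 96.0% of distal intervals. The next densest of Cdx2 by the mean was an intergenic interval 12.9 kb downstream, chr5:147292884-147294372, with 503 and 474 counts and a density of 328 ± 14.0 (SD, n = 2), which lies closer to the microRNA gene Mir7k. A short interval over the Cdx2 untranslated region had 65 and 78 counts, a density of 312 ± 39.96 (SD, n = 2). The order of these intervals did not hold in both libraries. The short one was lower in replicate 1 (284 against 338) and higher in replicate 2 (340 against 318). On the other side of the gene only a weak interval was found, 3.68 kb upstream, with 25 and 24 counts. Pdx1, the other ParaHox gene next to Cdx2, had a promoter density of 663 ± 37.2 (SD, n = 2). That was above the 4 of the 7 genes that had a TSS interval.

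Around T, the 5 downstream intervals were all intergenic. The densest was the farthest, 34.2 kb from the TSS at chr17:8468629-8469198, with 259 and 244 counts and a density of 441 ± 18.9 (SD, n = 2). Next came the interval 13.4 kb downstream, chr17:8447812-8448266, with 194 and 175 counts and a density of 406 ± 29.8 (SD, n = 2). Their densities were above 90.3% and 89.2% of distal intervals. The 3 intervals between them were weaker, at 71.9, 114 and 187 normalised counts per kb. Upstream, an intergenic interval 4.05 kb away, chr17:8429486-8430373, had 308 and 278 counts and a density of 329.96 ± 24.1 (SD, n = 2), and 3 others lay in introns of the neighboring gene T2, with densities of 71.2, 259 and 126.

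At Cdx4 accessibility was also highest far from the gene. The interval 33.6 kb upstream, chrX:103287058-103287835, had 455 and 419 counts and a density of 562 ± 33.0 (SD, n = 2), above 93.1% of distal intervals. That was higher than the interval at the Cdx4 gene in both libraries, and the difference exceeded both SDs. The annotation places it in an intron of 4930519F16Rik and an exon of Gm19200, both pseudogenes, and the TSS of Gm19200 is 1135 bp away. Whether reads at Gm19200, a processed pseudogene, could also match a parent gene was not tested. Weaker intervals lay 32.1 kb and 61.3 kb upstream, with densities of 215 ± 25.1 and 150.0 ± 0.0867 (SD, n = 2 each).

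Cdx1 and Nkx1-2 had few intervals, and these were close to the gene. For Cdx1 the densest was intergenic, 3.52 kb upstream at chr18:61039719-61040259, with 135 and 129 counts and a density of 244 ± 7.98 (SD, n = 2), and an intronic interval had 139 ± 13.4. For Nkx1-2 it was chr7:132596909-132598130, 1.51 kb after the TSS, over coding and untranslated sequence of Nkx1-2 and the TSS of antisense Gm16764, with 419 and 401 counts and a density of 336 ± 10.6 (SD, n = 2).

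Msgn1 had 6 intervals, and 0 of them reached a mean of 100 normalised counts. The counts ranged from 12 to 94, and the densities from 64.6 to 181. The strongest, chr12:11196154-11196664, lay 12.3 kb downstream in an exon of the lincRNA 9530020I12Rik, with 91 and 94 counts. Another overlapped an exon of 1700034J04Rik, and 5 of the 6 were closer to the TSS of one of these noncoding or unclassified transcripts than to Msgn1.

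When all intervals of a gene were summed and divided by the covered length, Tbx6 was highest with 1038 ± 14.9 normalised counts per kb over 1186 bp, and Cdx2 was next with 388 ± 15.3 over 6096 bp. Nkx1-2 had 310.1 ± 6.10, Cdx4 had 283 ± 9.28, T had 235 ± 12.4, Cdx1 had 144 ± 3.47 and Msgn1 had 111 ± 0.342 (SD, n = 2 each). In this order each gene was above the next in both libraries.

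Replicate error was then set against these differences. An exact two-sided binomial test of each interval, with Benjamini-Hochberg adjustment over all 119502 intervals, called 0 of the 31 at an adjusted p of 0.01, and 0 (0%) of all intervals. At an unadjusted p of 0.05 it called 3 of the 31, and 8.39% of all intervals. These were the T TSS interval (p = 0.00238, adjusted p = 0.296 by the exact binomial test, log2 ratio of replicate 1 over replicate 2 of 0.34), a T2 intron interval with 28 and 49 counts (p = 0.0220 by the exact test), and the Cdx2 interval 7.03 kb downstream (p = 0.0367 by the exact test). The test compares the libraries and not conditions.

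**Figure D3:**
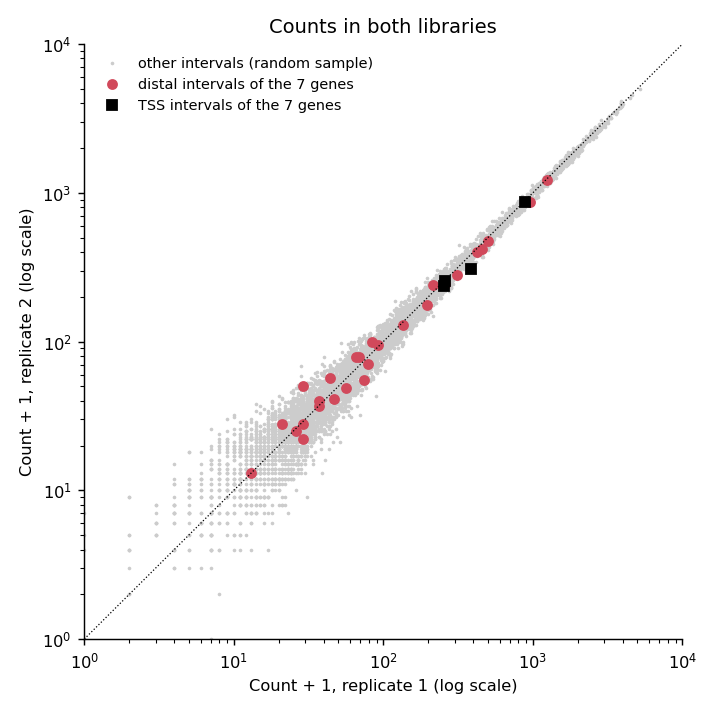
Counts plus 1 in replicate 1 against replicate 2, on log scales, for the 27 distal (red) and 4 TSS intervals (black) of the 7 genes over a random sample of 6000 other intervals (gray); the dotted line marks equal counts. The 31 intervals follow the line, with wider scatter below 100 counts.

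Sequence composition was not used to choose the intervals, but it differs between TSS and distal intervals, so each class was compared with its own. The ratio of observed to expected CpG was 0.663 at the T, 0.719 at the Cdx2, 0.609 at the Nkx1-2 and 0.593 at the Cdx1 TSS interval, beside a median of 0.698 over all TSS intervals. Among the 8595 TSS intervals with a ratio of at least 0.6, the median density was 1004 and the 10th percentile 437 normalised counts per kb, and the TSS intervals of T, Nkx1-2 and Cdx2, which belong to this class, lay below that 10th percentile. The share of CpG-rich TSS intervals that were lower still was 1.71% for T, 3.41% for Nkx1-2 and 3.93% for Cdx2. The Cdx1 interval fell just short of the class, and 0.582% of the class was lower than it. In the distal intervals the median ratio was 0.278, beside 0.211 over all distal intervals, and the median GC content was 52.2%, beside 48.6%.

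**Figure D4:**
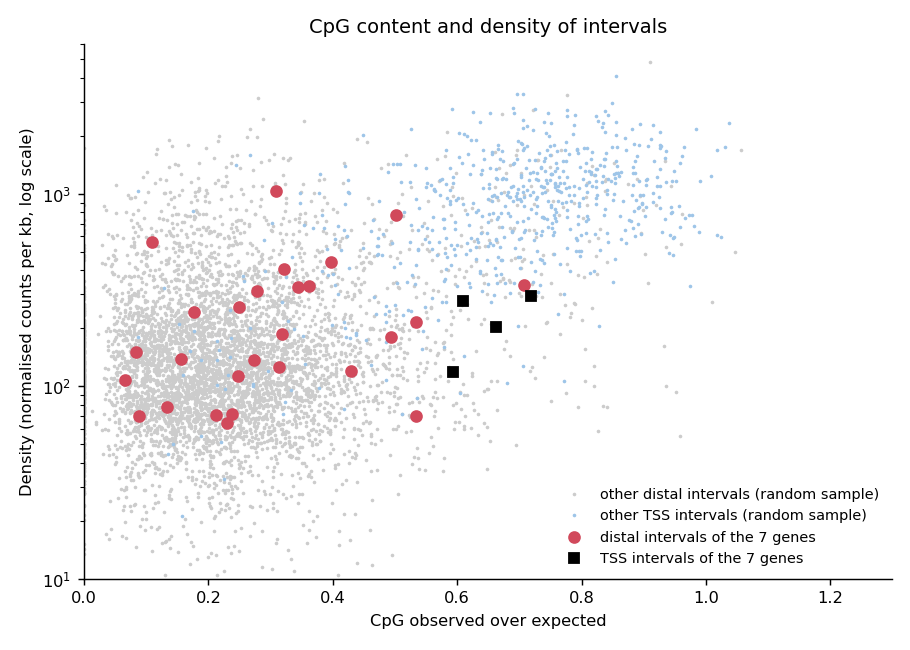
Density (normalised counts per kb, log scale) against the ratio of observed to expected CpG for TSS (black squares) and distal intervals (red circles) of the 7 genes, over a random sample of 6000 other intervals (blue, TSS; gray, distal). The black squares have CpG ratios of 0.593 to 0.719 and lie under most blue points at the same ratio.

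Short motifs of factors that act in the tailbud or in ventral progenitors were searched on both strands in the middle 300 bp of each interval. The letters of TCF/LEF factors, the effectors of Wnt signaling (CTTTGAT and the alternative form CTTTGAA), were found in 7 of 31 intervals (22.6%) and in 11.0% of all intervals. The SOX letters CATTGT were found in 10 of 31 (32.3%) and in 21.3% of all. The CDX letters (TTTATGG and the alternative form TTTATTG) were found in 2 of 31 (6.45%) and in 8.44% of all, and the T-box letters AGGTGT in 2 of 31 (6.45%) and in 12.3% of all. For the E-box CAGATG and its alternative form CATATG, to which OLIG and proneural factors bind, the numbers were 9 of 31 (29.0%) and 30.4%. The GLI letters GACCACCCA were in 0 of 31 and in 0.473% of all, and the octamer ATGCAAAT of POU factors in 1 of 31 and in 2.07%. With 31 intervals these shares carry no test.

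The promoters, as RefSeq windows of 250 bases before and 50 after the start, were found for 6 of the 7 genes and set beside 16522 protein-coding promoters. TCF/LEF letters were in the windows of T and Msgn1 and in 7.70% of all promoters. In the sequences printed above they begin 235 bp before the GENCODE start of T and 179 and 119 bp before that of Msgn1. The T promoter also held CDX letters at 178 bp, found in 6.32% of promoters, and T-box letters at 14 bp, which Cdx4 held too and 12.8% of promoters. The octamer was in the windows of Cdx2 and Cdx4, at 126 and 93 bp, and in 1.65% of promoters; it was added after the sequences had been read. No 2 matches in the printed sequences overlapped. A match is a description of the letters and not a bound site.

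Other genes of the tailbud program and its mesodermal descendants were measured for comparison. Of 18 genes of tailbud and NMP signaling, 14 had a TSS interval, with a median promoter density of 298 ± 22.5 over the list (SD, n = 2). They ran from 161 ± 9.59 at Wnt3a, the tailbud Wnt ligand, through 265 ± 14.3 at Fgf8 and 310.2 ± 24.0 at the Wnt target Sp5, to 1152 ± 43.9 at the general Wnt feedback gene Axin2 (SD, n = 2 each). Wnt8a, Fgf4, Sp8 and Hes3 had none over the TSS of the gene record, although Fgf4 (169) and Sp8 (690.1) had one over the start of another transcript. All 18 had an interval within 1 kb, and that of Hes3, at 2107, was denser than any TSS interval of the list. Of 14 presomitic and somitic mesoderm genes, 10 had a TSS interval, with a list median of 440.1 ± 17.1 (SD, n = 2). The Notch ligand Dll1, with 892 ± 10.8, the mesodermal forkhead factor Foxc1, with 900.4 ± 30.9, and the Notch modulator Lfng, with 2294 ± 79.7 (SD, n = 2 each), exceeded the median of genes with a TSS interval, and Hes7, Mesp1, Mesp2 and Meox1 had no TSS interval. In each list 3 genes exceeded that median of 884.

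Among relatives by sequence family, 10 of 17 T-box genes had a TSS interval, from 157 ± 28.2 at Tbx4 to 1530.2 ± 2.18 at Tbx20 (SD, n = 2 each); T was next above Tbx4, and their SDs of 33.4 and 28.2 overlapped. Of the 8 ParaHox and Nkx1 genes, 7 had one, from Cdx1 to Pdx1, and Cdx4 was the one without. In promoter density the companion gene nearest to T was Gsx2 (199.8 ± 12.7), nearest to Cdx1 was Tbx4, and nearest to both Cdx2 and Nkx1-2 was Cyp26a1, which degrades retinoic acid (286 ± 23.5; SD, n = 2 each). For T the difference from Gsx2 was within both SDs. For Cdx2 and Nkx1-2 the difference from Cyp26a1 was within the SD of Cyp26a1 but larger than their own.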

How the data were processed

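The authors aligned the reads to mm10 with the nf-core atacseq pipeline (1.2.0), called peaks with MACS and built consensus intervals, from peaks in at least 2 replicates, over 5 libraries. They deposited raw fragment counts per interval (featureCounts 2.0.1, read pairs, minimum overlap a fraction of 0.2 of the fragment, a fragment counted in every interval it overlaps). The 3 columns of samples outside this series were not used, although they helped to define the intervals. Nothing states that the 2 replicates came from separate cultures, so SDs and p-values measure only the spread between these libraries, which may be technical.

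Size factors came from DESeq2 (1.42.0). Genes were those of GENCODE M21, a TSS was the 5′ end of a protein-coding gene record, and distance was taken from the nearest interval edge. Promoter density was that of the interval over the TSS, or 0. Replicates were compared by an exact binomial test (scipy 1.17.1, statsmodels 0.14.6), tested on simulated data. Alternatives used edgeR (4.0.16) TMM factors or total counts, other TSS definitions, a mean normalised count of at least 10, counts per interval, and leaving out each replicate. The 7 genes, the lists and the tests were chosen with earlier results of these data known. All 7 genes are named, each with its TSS interval, its densest interval and its densest distal interval; genes of the lists are named by promoter density. Counts carry no molecular identifiers.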

Additional observations from a re-analysis of the deposited data

How the results depend on the processing

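No paired analysis was possible because both libraries belong to 1 group. Of 33 alternatives, 28 stayed within the spread between the libraries or, for counts, within 1.5 times. These 28 include the change from 4 to 6 genes when intervals within 1 kb of the TSS were allowed, which lies at the 1.5 limit. That change took the 7 genes from below the share over all protein-coding genes (61.5%) to above it (67.8%). With the TSSs of all annotated genes, noncoding ones included, 19 of the 31 intervals remained nearest to the 7 genes, and their median density was 204 in place of 187 normalised counts per kb; fewer intervals were assigned by construction. Counted per interval, the median was 90.5 normalised counts, and the median at the promoters was 246 in place of a density of 119. With intervals within 1 kb of the TSS the median promoter density was 204, because Tbx6 and Cdx4 gained a value. Leaving out 1 replicate gave median densities of 180.4 to 198 over the 31 intervals and of 114 to 124 at the promoters, and 14 intervals over 100 normalised counts each time. Without the intervals of T, or with 1 value per gene, settings chosen after seeing the data, the median density was 181 or 195. The binomial test called 0 of the 31 intervals under TMM, total counts and a mean of at least 10, and under TMM 6 of all intervals. The widest log2 ratio of replicates among the 31 intervals, -0.81, was at the T2 intron interval with 28 and 49 counts, whereas an interval of T with 28 and 27 counts had 0.054.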
